A study of Mus musculus with 4 samples.

Results

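The T cell receptor is the antigen receptor of T cells, and the 10 genes described here encode its invariant signalling chains, its coreceptors and surface or adaptor proteins of the same cells. They are Cd3d, Cd3e, Cd3g, Cd247, Cd4, Cd8a, Cd8b1, Lat, Cd2 and Thy1. They were taken by symbol from a deposited table of 24442 genes, in which all 10 were found. The table covers mammary gland cells of untreated 5-week-old female mice carrying Lgr6-eGFP-CreErt2, which places a green fluorescent protein and an inducible Cre recombinase under the control of Lgr6. Sorting of lineage-negative cells gave 4 libraries, 2 of cells labelled positive for Lgr6 (Lgr6+) and 2 of cells labelled negative (Lgr6-). The labels name neither the lineage markers nor the gate for Lgr6- cells. They are also silent on whether both libraries of a population came from different animals or from pooled glands, so p-values cover the spread between libraries, which may be technical. The comparison asked how transcripts of the T cell receptor complex were distributed between both populations.

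The variable chains of the receptor bind peptides held by histocompatibility molecules but have almost no signalling tail of their own. They are assembled with the CD3 gamma, delta and epsilon chains and with the zeta chain, whose tails are phosphorylated by the kinase Lck and then bind the kinase Zap70. CD4 and CD8 bind class II and class I histocompatibility molecules and bring Lck to the receptor, and the membrane adaptor LAT carries the signal onward. T cells are among the leukocytes that reside in the mammary gland. Several of these genes are also used outside T cells: Cd247 and Cd2 in natural killer cells, Lat in mast cells and platelets, Cd8a in a class of dendritic cells, and Thy1 in fibroblasts.

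The genes of the CD3 chains lie together on chromosome 9 of GRCm38. Cd3g (44969572 to 44980431, minus strand) and Cd3d (44981786 to 44987339, plus strand) are transcribed away from each other from starts 1355 bases apart, and Cd3e (44998740 to 45009627, minus strand) lies 11400 bases beyond Cd3d. Cd8b1 (71322788 to 71337494) and Cd8a (71373427 to 71379173) are neighbours on the plus strand of chromosome 6, separated by 35932 bases. The promoters of the 3 neighbouring CD3 genes are shown because these genes share 1 locus and had different counts in the same libraries. Each runs from 250 bases before to 50 bases after the RefSeq start (GRCm38.p6), 5′ to 3′ on the gene's own strand, at chr9:44980382-44980681 for Cd3g, chr9:44981536-44981835 for Cd3d and chr9:45009562-45009861 for Cd3e. Capitals mark GGAA or its complement TTCC, the core of the motif bound by ETS factors.
Cd3g: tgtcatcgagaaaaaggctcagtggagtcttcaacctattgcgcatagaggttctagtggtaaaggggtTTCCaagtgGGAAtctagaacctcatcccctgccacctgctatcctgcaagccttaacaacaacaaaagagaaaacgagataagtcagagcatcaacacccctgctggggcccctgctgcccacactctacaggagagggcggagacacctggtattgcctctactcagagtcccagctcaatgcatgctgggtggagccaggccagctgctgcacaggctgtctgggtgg
Cd3d: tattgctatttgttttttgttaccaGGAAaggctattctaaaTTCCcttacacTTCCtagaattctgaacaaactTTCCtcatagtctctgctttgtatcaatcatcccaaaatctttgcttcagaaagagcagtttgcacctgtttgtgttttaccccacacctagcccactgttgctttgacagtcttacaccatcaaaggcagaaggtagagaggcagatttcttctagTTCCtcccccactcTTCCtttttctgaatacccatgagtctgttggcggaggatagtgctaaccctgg
Cd3e: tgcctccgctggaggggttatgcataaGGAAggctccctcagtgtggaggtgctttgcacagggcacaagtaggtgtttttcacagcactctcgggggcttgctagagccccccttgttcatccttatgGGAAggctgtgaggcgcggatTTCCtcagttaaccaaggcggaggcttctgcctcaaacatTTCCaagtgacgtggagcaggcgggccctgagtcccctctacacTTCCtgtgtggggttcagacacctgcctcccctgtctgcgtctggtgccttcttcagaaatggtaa

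The core occurred 2 times in the Cd3g, 6 times in the Cd3d and 5 times in the Cd3e window, against a median of 3 over 32851 promoters of this length. RefSeq promoters were matched for 6 of the 10 genes, these 3 and Cd247, Cd8a and Lat. On either strand, GGAA was found in all 6, as in 96.0% of all promoters, and the E-box CANNTG in all 6, against 72.3%. The RUNX motif TGTGGT was found in 1 of 6, in Lat, against 16.8%, and the TATA box TATAAA in 0 of 6, against 13.6%. These matches describe letters in these windows only.

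Most of the 10 genes had counts in Lgr6- libraries and few or none in Lgr6+ libraries. In each Lgr6+ library they summed to 134 and 29 counts, and in each Lgr6- library to 1200 and 1345 counts, of 6819127 to 7167465 counts per library. For 9 of the 10, both Lgr6+ libraries lay below both Lgr6- libraries in CPM (counts normalized for sequencing depth with edgeR's TMM factors), and Cd3d was the exception. Among the 15897 genes with any counts, 21.1% were ordered this way. Cd3g, Cd4, Cd8a and Cd8b1, 4 of the 10, had no counts in either Lgr6+ library, against 7.81% of those genes. In the fit across 11661 genes with enough counts (edgeR's quasi-likelihood test, Benjamini-Hochberg adjusted p under 0.05), 7 of the 10 were tested, 1 was called lower, 0 were called higher and 6 did not pass. The call was Cd2. Of all tested genes, 4.57% were called lower and 4.49% higher, and with a single call nothing can be read from the count of the 10 against this. Some other fits gave more calls, all lower. DESeq2 called 6 of the 9 genes to which it gave an adjusted p, against 8.4% of all genes, and limma-voom 4 of 7, against 6.24%. With no filter on low counts, edgeR called 3 of 10, against 5.37%, and with a replicate block 2 of 7, against 5.68%. Single libraries mattered as well: 3 were called without replicate 1 of Lgr6+ cells (8.21% of all genes), 2 without replicate 1 (4.48%) and 0 without replicate 2 (4.09%) of Lgr6- cells. The other 3 genes, Cd3d, Cd8b1 and Lat, were not tested as reported, because fewer than 2 libraries reached the filter's minimum level.

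**Figure D1:**
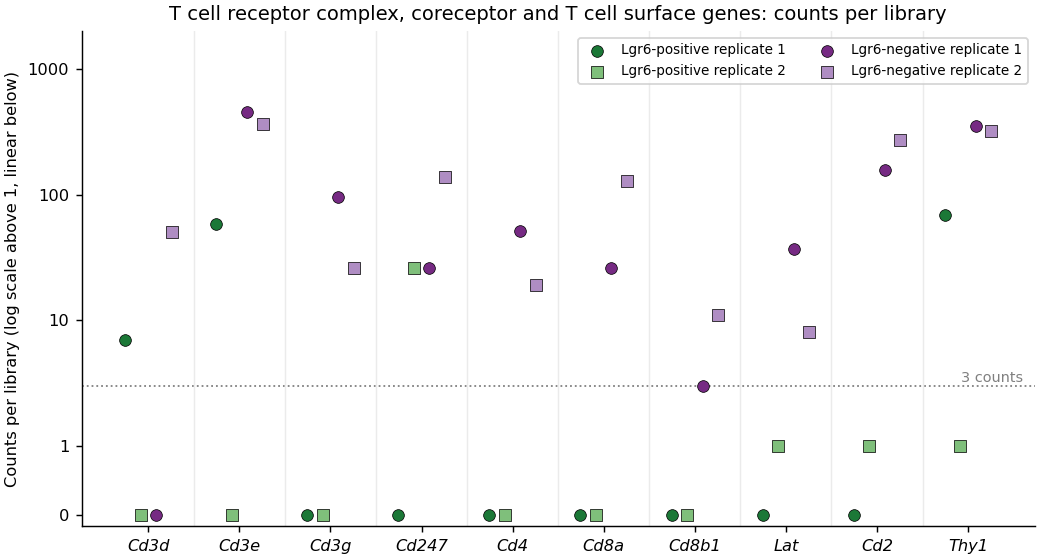
Counts of each of the 10 genes (x axis) in each of the 4 libraries (y axis, log scale above 1 count and linear below), with green for Lgr6+ and purple for Lgr6- libraries, circles for replicate 1 and squares for replicate 2. Cd3e, Cd2 and Thy1 had the most counts in Lgr6- libraries, and the counts of Cd3e and Thy1 in Lgr6+ cells (58 and 69) came from replicate 1.

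Lgr6 itself, as a check of the labels, had 172 and 655 counts in the Lgr6+ and 3 and 10 in the Lgr6- libraries (log2 fold change of 5.52, SE 1.47, adjusted p = 0.0510). It passed under 9 of 12 alternatives, with an adjusted p from 7.42e-05 to 0.349, the highest being without replicate 2 of Lgr6+ cells. The test called 524 genes higher and 533 lower in Lgr6+ cells. Scaling by library size alone turned the share of higher genes among the calls from 49.6% to 65.8%. The ribosomal RNA gene Rn45s took 17.2% and 14.5% of the counts in the Lgr6+ and 18.7% and 30.8% in the Lgr6- libraries. With library sizes that left it out the share was 59.1%. In the same libraries Ptprc, the pan-leukocyte phosphatase CD45 that also acts on Lck, was lower, with 394 and 185 against 11168 and 6692 counts (-5.35, SE 0.48, adjusted p = 5.80e-04). Bulk libraries cannot tell fewer T cells from less RNA per cell.

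Of the CD3 chains, Cd3e, which encodes the epsilon chain, had 58 and 0 counts in the Lgr6+ and 451 and 368 counts in the Lgr6- libraries. The Lgr6- libraries were both high and close to each other, and the Lgr6+ counts all came from replicate 1. In CPM this was 3.56 ± 5.03 against 67.9 ± 3.50 (mean ± SD over n = 2 libraries per population, here and below). The log2 fold change of Lgr6+ over Lgr6- was -4.25 (SE 1.75, adjusted p = 0.167), which did not pass. Without replicate 1 of Lgr6+ cells it was -11.82 and passed (adjusted p = 1.20e-04, in a range over the alternatives up to 0.244). It also passed with no filter on low counts (0.00933), in DESeq2 (0.0330), with a replicate block (0.0359) and in limma-voom (0.0453). Of the exonic bases of Cd3e, 3.31% overlap another annotated gene.

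Cd3g, the gamma chain gene, had 0 counts in both Lgr6+ libraries and 95 and 26 in the Lgr6- libraries. The groups did not overlap, and the Lgr6- libraries differed 3.21-fold in CPM. At 9.72 ± 7.21 CPM in Lgr6- cells it was at least 26.0-fold lower in Lgr6+ cells, against a floor of 3 counts per library (0.368 and 0.380 CPM). The bound was 12.4-fold without replicate 1 and 39.6-fold without replicate 2 of Lgr6- cells. It did not pass as reported (adjusted p = 0.0877), but did in DESeq2 (0.00561) and limma-voom (0.0319), within a range up to 0.509. Such bounds, and the counting intervals given for other genes, leave out amplification error, because reads carried no molecular identifiers.

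Cd3d, the delta chain gene, was the only member whose groups overlapped. It had 7 and 0 counts in the Lgr6+ and 0 and 50 in the Lgr6- libraries, so all of its Lgr6- counts came from replicate 2. The level was 0.429 ± 0.607 against 4.44 ± 6.28 CPM, a spread as large as the means. Cd3d and Cd3g, whose promoters face away from each other above, thus had their higher Lgr6- counts in different libraries, Cd3d in replicate 2 and Cd3g in replicate 1. Across genes, the Lgr6- libraries differed well beyond counting error (chi-square per degree of freedom of 86.4). With 1 library on each side, this contrast has no replicate check. Where Cd3d entered a fit its adjusted p ran from 0.371 to 0.821.

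Cd247, which encodes the zeta chain, lies on chromosome 1 from 165788681 to 165877277. It had 0 and 26 counts in the Lgr6+ and 26 and 137 in the Lgr6- libraries. The higher Lgr6+ and the lower Lgr6- library were nearly level, at 3.29 and 4.06 CPM. The log2 fold change was -3.10 (SE 2.30, adjusted p = 0.483), and it passed under none of the 11 alternatives in which it was tested (adjusted p from 0.115 to 0.921). Of its exonic bases, 60.3% also lie in exons of other genes, among them Pou2f1 on the opposite strand. Pou2f1 had 522 and 540 counts in the Lgr6+ and 283 and 272 in the Lgr6- libraries. The strand setting of the counting is not given in the sources used here, so reads of the overlapping part cannot be assigned to one gene.

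Both coreceptors had no counts in Lgr6+ libraries. Cd4, at bases 124864692 to 124888221 of chromosome 6, had 51 and 19 counts in the Lgr6- libraries, or 5.67 ± 3.24 CPM. It was thus at least 15.2-fold lower in Lgr6+ cells, with a bound of 9.03-fold without replicate 1 of Lgr6- cells. It did not pass (adjusted p = 0.104), and of 11 alternatives DESeq2 alone called it (0.0419, in a range up to 0.578).

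Cd8a, which encodes the alpha chain of CD8, had 26 and 128 counts in the Lgr6- libraries, or 13.4 ± 13.2 CPM. It was at least 35.8-fold lower in Lgr6+ cells, with a bound of 10.8-fold without replicate 2 and of 60.8-fold without replicate 1 of Lgr6- cells. It did not pass as reported (adjusted p = 0.0782). It passed without replicate 1 of Lgr6- cells (0.0427), in DESeq2 (0.00153) and in limma-voom (0.0322), within a range up to 0.535. Cd8b1, the beta chain gene that pairs with Cd8a in conventional CD8 T cells, had 3 and 11 counts in the Lgr6- libraries. It was at least 3.24-fold lower in Lgr6+ cells, and the bound was 1.25-fold without replicate 2 and 5.23-fold without replicate 1 of Lgr6- cells.

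The balance of the coreceptors differed between the Lgr6- libraries. Replicate 1 held 1.96 counts of Cd4 per count of Cd8a, and replicate 2 held 6.74 counts of Cd8a per count of Cd4. Cd8b1 and Cd8a were both higher in replicate 2, 4.18-fold and 5.61-fold in CPM, and Cd4 was 2.36-fold higher in replicate 1. With 1 library on each side this difference has no replicate check. Dendritic cells of the class that carries CD8 alpha also use Xcr1, which had 0 counts in both Lgr6+ and 43 and 27 in the Lgr6- libraries and did not pass (adjusted p = 0.102) except in DESeq2 (0.0380) and limma-voom (0.0467, in a range up to 0.500). Over the 14 dendritic cell genes of the list, 4 had no counts in Lgr6+ cells (Xcr1, Batf3, Siglech and Ccr9), and summed levels were 73.2 and 135 CPM in Lgr6+ and 592 and 308 CPM in Lgr6- libraries. Of 9 tested, 2 were lower, 0 higher and 7 did not pass. The bundling protein gene Fscn1, chosen after its values were seen, overlapped between the groups at 41 and 831 against 321 and 20 counts (1.04, adjusted p = 0.760) and made up 105 CPM of the sum in Lgr6+ replicate 2. Zbtb46 overlapped too, with 41 and 0 against 0 and 9 counts, and so did Clec9a, with 9 and 0 against 16 and 3 counts. In the Lgr6- libraries Xcr1 and Clec9a had more counts in replicate 1. Batf3 (3 and 10 counts), like Cd8a, had more in replicate 2. The part of dendritic cells in the Cd8a counts was not tested.

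Cd2, an adhesion receptor of T and natural killer cells that binds CD48 in the mouse, was lower in Lgr6+ cells. It had 0 and 1 counts in the Lgr6+ and 156 and 274 in the Lgr6- libraries. Both Lgr6- libraries were far above both Lgr6+ ones, at 36.5 ± 17.2 against 0.0634 ± 0.0896 CPM. The ratio between both populations was 573 (95% counting interval 102 to 22698), and adjusted p was 0.0263 with all 4 libraries in this order. It was 782 without replicate 1 of Lgr6- cells and 282 without replicate 1 of Lgr6+ cells. Without replicate 2 of Lgr6+ cells, which held its single count, Cd2 was at least 99.3-fold lower. The call was lost without replicate 2 of Lgr6- cells (adjusted p = 0.0871, the highest over 12 alternatives, of which the lowest was 1.50e-05). None of its exonic bases (chromosome 3, 101275899 to 101287939) lies in exons of another gene. Cd48, the ligand gene, chosen after its values were seen, had 51 and 232 against 852 and 597 counts and did not pass (-2.74, adjusted p = 0.0922), though it did under 4 of 12 alternatives, with the lowest adjusted p without replicate 2 of Lgr6+ cells (3.29e-04, in a range up to 0.183).

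Thy1, a surface glycoprotein gene at bases 44043384 to 44048579 of chromosome 9, had 69 and 1 counts in the Lgr6+ and 355 and 324 in the Lgr6- libraries. As for Cd3e, the Lgr6- libraries were close together and nearly all Lgr6+ counts were in replicate 1. Levels were 4.29 ± 5.89 against 56.5 ± 1.56 CPM (log2 fold change of -3.71, SE 1.60, adjusted p = 0.188). Without replicate 1 of Lgr6+ cells Thy1 passed (-8.60, adjusted p = 0.00147, in a range up to 0.276), as it did with no filter (0.0428) and in DESeq2 (0.0468). Fibroblast and pericyte genes were on the other side: of 11 tested, 4 were higher in Lgr6+ cells, 0 were lower and 7 did not pass. Their summed level was 990.1 and 686 CPM in Lgr6+ and 41.2 and 84.8 CPM in Lgr6- libraries, and their part in the Thy1 counts of Lgr6+ cells was not tested. They included the collagen gene Col1a2 (3.85, SE 0.76) and the fibrillin gene Fbn1 (4.002, SE 0.66).

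Lat had 0 and 1 counts in the Lgr6+ and 37 and 8 in the Lgr6- libraries. All Lgr6- counts lay above those of Lgr6+ libraries, with a ratio of 60.0 and a 95% counting interval from 10.2 to 2422. The ratio was 22.8 without replicate 1 of Lgr6- cells and 29.5 without replicate 1 of Lgr6+ cells, and without replicate 2 of Lgr6+ cells Lat was at least 9.78-fold lower. Where it entered a fit, adjusted p ran from 0.198 to 0.576. Of 13 mast cell and platelet genes, 6 had counts in Lgr6- cells alone. Among these, chosen after their values were seen, were the high-affinity IgE receptor genes Ms4a2 (74 and 3 counts) and Fcer1a (31 and 4 counts). Like Lat they had more counts in replicate 1, but so did Cd3g (95 and 26) and Cd4 (51 and 19). Of the 10 genes, 4 were higher in replicate 1 and 6 in replicate 2 in CPM, so this lean was not particular to mast cell genes. The platelet genes Pf4 (114 and 150 counts) and Itga2b (20 and 51 counts) were in Lgr6+ libraries, with 0 and 0 and with 0 and 2 counts in Lgr6- ones, and did not pass as reported (adjusted p = 0.0634 and 0.288), though Pf4 did under 5 of 12 alternatives, with the lowest adjusted p in DESeq2 (3.39e-04, in a range up to 0.149). The other platelet genes were not uniform, with 56 and 0 against 0 and 1 counts for Ppbp and 0 and 0 against 1 and 6 for Gp1bb. The summed level of the list was 314 and 136 CPM in Lgr6+ and 49.1 and 36.1 CPM in Lgr6- libraries. The receptor gene Kit made up 290.5 and 110 CPM of it in Lgr6+ libraries, and Tpsb2, Gp9 and Gp6 had no counts at all. Of 3 tested genes of the list, 0 were lower and 1 was higher, Kit (log2 fold change of 2.95, SE 0.68, adjusted p = 0.0311). That call was lost under 2 of 12 alternatives. The listed mast cell genes Cpa3, Fcer1a, Ms4a2, Mcpt4 and Cma1 had no counts in Lgr6+ libraries, so the Kit call does not stand for them. The source of the Kit counts was not tested. The part of mast cells and platelets in the Lat counts was not tested either.

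Per kilobase of exon, which allows levels of different genes to be compared, Cd2, Thy1 and Cd3e were the most abundant in Lgr6- cells. Their levels were 21.0 ± 9.90, 18.9 ± 0.521 and 16.6 ± 0.858 CPM per kb, and these did not differ beyond the spread of Cd2. The other 7 ranged from 3.69 ± 3.63 CPM per kb for Cd8a through 2.97 ± 2.21 for Cd3g, 2.67 ± 2.69 for Cd247, 2.45 ± 3.46 for Cd3d, 1.41 ± 0.803 for Cd4 and 1.30 ± 1.11 for Lat to 0.817 ± 0.709 for Cd8b1. Within these 7, neighbours in the order lay within their spread. The CD3 epsilon transcript was thus above its partner chains in both libraries, although the chains are built into 1 complex. In CPM, 6 of the 10 genes were higher in replicate 2 and 4 in replicate 1. Thy1 and Cd3e differed least between the libraries, 1.04-fold and 1.08-fold.

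**Figure D2:**
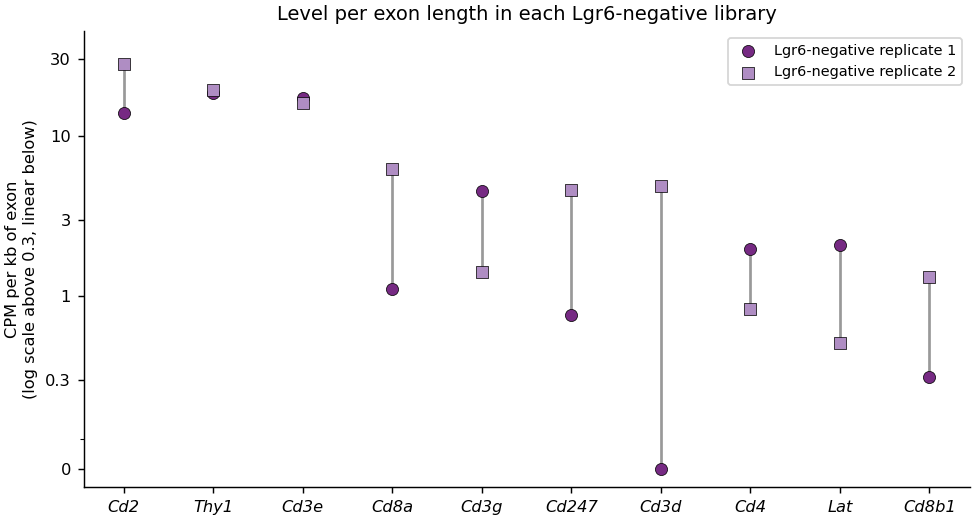
Level of each gene (x axis, ordered by mean) in CPM per kb of exon (y axis, log scale above 0.3 and linear below) in Lgr6- replicate 1 (circles) and replicate 2 (squares), joined by a line. Cd2, Thy1 and Cd3e were above the other 7 genes in both libraries, and the lines of Cd8a, Cd247 and Cd3d rise to replicate 2 while those of Cd3g, Cd4 and Lat rise to replicate 1.

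Relative to Ptprc, which needs no scaling between libraries, the summed counts of the 10 genes were not uniformly lower in Lgr6+ cells. They came to 340 and 157 per 1000 Ptprc counts in the Lgr6+ and to 107 and 201 in the Lgr6- libraries, and these ranges overlapped. The Lgr6+ values rested on few genes, with Cd3e at 147 and Thy1 at 175 per 1000 Ptprc counts in replicate 1 and Cd247 at 141 in replicate 2. Cd2 was at 0 and 5.41 against 14.0 and 40.9 per 1000 Ptprc counts. Of the 10 genes, 3 had counts in Lgr6+ replicate 1, 4 in replicate 2 and only Thy1 in both.

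The fitted log2 fold changes of the 7 tested genes had a median of -8.32, or of -4.25 with genes of 0 to 3 Lgr6+ counts set at their bound or ratio, beside 0.10 over all tested genes. All 7 were negative as reported, and no alternative changed a sign. These 7 passed the filter mainly through Lgr6- counts, so a difference was required for most of them.

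**Figure D3:**
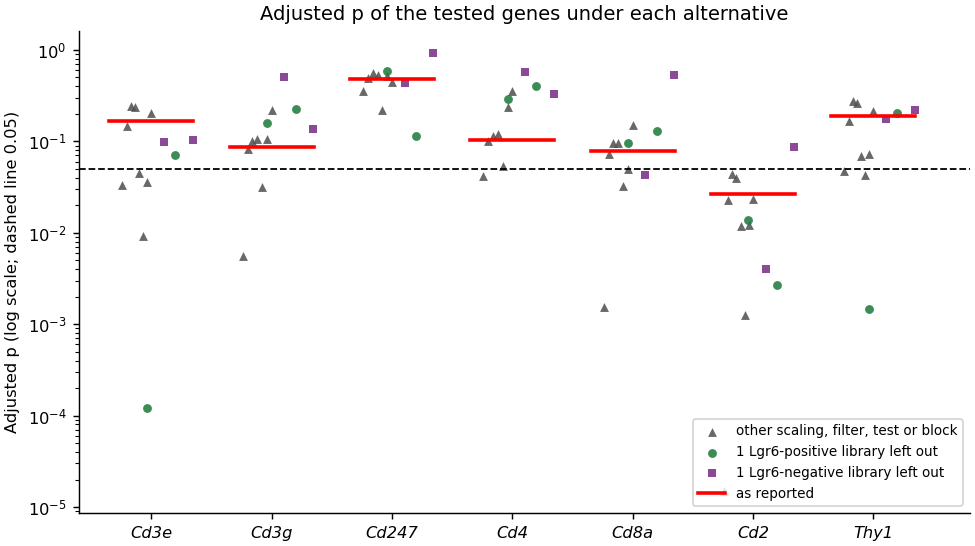
Adjusted p (y axis, log scale) of the 7 tested genes as reported (red line) and under each alternative, with green circles for a left-out Lgr6+ library, purple squares for a left-out Lgr6- library and grey triangles for other settings. Cd2 crossed the dashed line at 0.05 only without Lgr6- replicate 2 (0.0871), while Cd247 stayed above it throughout.

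Genes that act beside the complex were counted in lists that were chosen with earlier results of these data known. Apart from Gata3, called higher as given below, the tested genes of these T cell lists were lower or did not pass. Of 34 tested kinases, adaptors and effectors of receptor signalling, 12 were lower in Lgr6+ cells, 0 higher and 22 did not pass, with a median log2 fold change of -3.41. Lcp2, the adaptor SLP-76 that LAT recruits, had 14 and 67 against 2149 and 3631 counts (-6.58, SE 0.85, adjusted p = 0.00267). The phosphatase gene Ptpn6 (-4.17, SE 0.70, adjusted p = 0.00816) and the ubiquitin ligase gene Cblb (-3.45, SE 0.52, adjusted p = 0.00511), which restrain receptor signalling, were also lower, beside Ptprc. All 4 are widely used in other leukocytes.

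The kinase genes Lck and Zap70 were chosen after their values were seen. Lck, the kinase bound by CD4 and CD8, had 1 and 151 counts in the Lgr6+ and 223 and 15 in the Lgr6- libraries, which overlapped (-0.96, adjusted p = 0.846). Leaving out replicate 1 of Lgr6- cells turned this to 1.84. Zap70 had 0 and 0 against 9 and 12 counts and was not tested. The chains that bind antigen could not be set beside these: of 14 symbols listed for receptor chains, only Ptcra was matched in the table, with no counts, and the others were not analysed here.

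Costimulatory and checkpoint receptors had a median log2 fold change of -7.65 over 16 tested genes, or -6.52 with bounds, and 5 were lower, 0 higher and 11 did not pass. In this list and in the natural killer list below, many tested genes had passed the filter through Lgr6- counts alone, which fixes the sign of their values, so the medians are descriptions. Of the 24 genes of this list, 12 had no counts in Lgr6+ libraries. Ctla4, an inhibitory receptor that competes with CD28, had 259 and 231 counts in the Lgr6- libraries and was at least 109-fold lower (adjusted p = 0.0160). Cd7, with 547 and 109 counts, was at least 140.0-fold lower (adjusted p = 0.0152), a call lost without replicate 1 of Lgr6- cells (adjusted p = 0.0689, the highest over its alternatives), where the bound was 51.8-fold. Cd244, a receptor for CD48 on natural killer and some T cells, had 274 and 545 counts and was at least 187-fold lower (adjusted p = 0.00740), or 114-fold without replicate 2 of Lgr6- cells. Havcr2, the receptor TIM-3 of T and myeloid cells, had 2 and 1 against 836 and 638 counts, a ratio of 655 (95% counting interval 224 to 3180.4), with an adjusted p of 0.00172. Cd28 itself, chosen after its values were seen, had 33 and 3 against 331 and 232 counts and did not pass (-4.38, adjusted p = 0.103), except without replicate 1 of Lgr6+ cells (0.0103), with no filter (0.0346) and in DESeq2 (0.00342, in a range up to 0.211).

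Cytokine and homing receptors of T cells had a median of -4.71 over 17 tested genes, with 7 lower, 0 higher and 10 that did not pass. Il2rb, the beta chain of the interleukin-2 and interleukin-15 receptors, had no counts in Lgr6+ and 457 and 1215 in Lgr6- libraries and was at least 384-fold lower (adjusted p = 0.00242). The bound was 191-fold without replicate 2 and 577-fold without replicate 1 of Lgr6- cells. The chemokine receptor genes Ccr7 (-5.82, SE 0.84, adjusted p = 0.00421) and Cxcr4 (-4.52, SE 0.52, adjusted p = 0.00153) and the adhesion receptor gene Cd44 (-2.64, SE 0.29, adjusted p = 0.00130) were lower. Transcription factors of T cells had a median of -1.19 over 22 tested genes, with 4 lower, 1 higher and 17 that did not pass. Ikzf1, a factor of all lymphocytes, was lower (-5.45, SE 0.48, adjusted p = 5.56e-04), and Gata3, which luminal mammary cells also need, was higher (4.73, SE 0.86, adjusted p = 0.0114), with that call lost in limma-voom (0.0541, the highest over its alternatives).

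**Figure D4:**
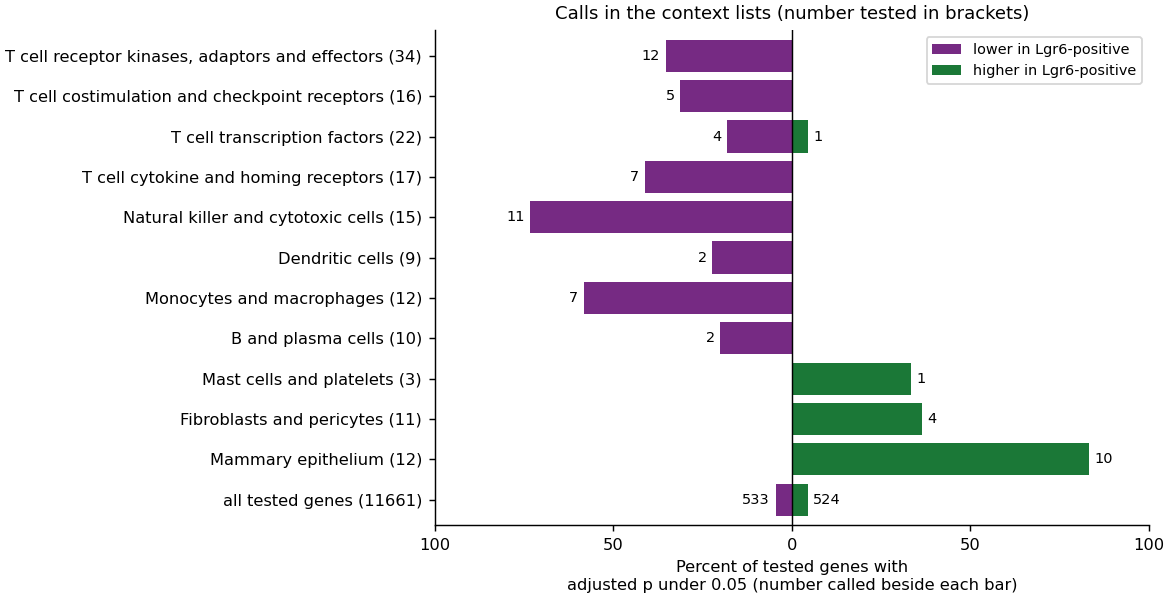
Percent of the tested genes of each list called lower (purple, to the left) or higher (green, to the right) in Lgr6+ cells, with the number called beside each bar and the number tested in brackets. The natural killer list had the largest lower share of these lists (11 of 15), mammary epithelium the largest higher share (10 of 12), and all tested genes are at the bottom.

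Many markers of natural killer cells, and some of other leukocytes, were lower in Lgr6+ cells too. Of 15 tested natural killer and cytotoxic genes, 11 were lower, 0 higher and 4 did not pass, and the median log2 fold change was -10.33, or -7.01 with bounds. Of the 19 genes listed, 13 had no counts in Lgr6+ cells, and Gzmk had none in any library. The summed level was 31.6 and 8.11 CPM in Lgr6+ and 865 and 853 CPM in Lgr6- libraries. Of the Lgr6+ sums, 29.4 and 7.48 CPM came from the integrin gene Itga2, chosen after its values were seen. Itga2 was on the other side, with 240 and 59 against 7 and 41 counts, and did not pass (2.14, adjusted p = 0.527). The granule protein gene Nkg7 (1065 and 537 counts in Lgr6- cells) was at least 349.8-fold lower (adjusted p = 0.00195). Gzma, a granzyme gene, had 1 and 0 against 845 and 645 counts, a ratio of 1987 (95% counting interval 356 to 78523). It was at least 324-fold lower without replicate 1 of Lgr6+ cells, which held that count, and the ratio was 1010 without replicate 2. Ncr1, the natural killer receptor NKp46, chosen after its values were seen, had 0 and 0 against 225 and 404 counts and was at least 143-fold lower (adjusted p = 0.0113), or 93.9-fold without replicate 2 of Lgr6- cells. Natural killer cells use Cd247 and Cd2 as well, and their part in the counts of these genes was not tested.

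Among the tested genes of other leukocyte lists, 7 of 12 were lower for monocytes and macrophages and 2 of 10 for B and plasma cells. In either of these lists 0 were higher. In the mast cell and platelet list Kit alone was called higher, with the limits given above. The monocyte and macrophage list summed to 1722 and 1890 CPM in Lgr6+ and to 21773 and 23696 CPM in Lgr6- libraries. Lyz2 alone made up 1040 and 1370 CPM of the former and 16972 and 18367 CPM of the latter. Mrc1 (880 and 211 against 131 and 86 counts) and C1qb (568 and 220 against 238 and 40), chosen after their values were seen, had positive log2 fold changes. Neither passed (1.91 and 1.14, adjusted p = 0.293 and 0.622), and C1qb overlapped between the groups. The B and plasma cell list summed to 153 and 133 CPM against 1107 and 1268 CPM. Most of the latter came from the genes called lower, the antibody joining chain gene Jchain (755 and 906 CPM) and Pou2af1 (203 and 174 CPM). Ebf1 (87.8 and 85.3 against 25.1 and 1.60 CPM) and Cd22 (31.4 and 26.5 against 11.5 and 19.2 CPM) were on the other side and did not pass (adjusted p = 0.208 and 0.714), except Ebf1 without replicate 1 of Lgr6- cells (0.00523, in a range up to 0.443). Mammary epithelial genes were 10 of 12 higher, at 6283 and 6254 against 212 and 213 CPM. The part of these differences in composition in the values of the 10 genes was not tested.

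Among all tested genes, those nearest in pattern to the summed counts of Cd3d, Cd3e, Cd3g and Cd247 (65 and 26 in the Lgr6+, 572 and 581 in the Lgr6- libraries) were Myo1g, Smim5, Ocstamp, H2-Eb1 and Uvrag. Of these sums, Cd3e gave 58 counts in Lgr6+ replicate 1 and 451 and 368 in the Lgr6- libraries. All 26 counts of Lgr6+ replicate 2 were of Cd247, which shares 60.3% of its exonic bases with other genes. The sums thus do not describe each chain. Likeness was the root mean square difference of centred log2 levels over the 4 libraries, which was 0.0966 for Myo1g and 0.181 for Uvrag. Myo1g, a myosin of blood cells, had 215 and 93 against 1900 and 2236 counts. H2-Eb1, a class II histocompatibility gene, had 132 and 50 against 868 and 938 counts. Smim5 had 2 and 0 against 43 and 39 counts and Ocstamp 2 and 0 against 36 and 44. Their Lgr6+ levels were near the floor, so their likeness depends on the prior count added before taking logs. With 4 libraries in 2 groups, many genes share such a pattern, and it is given as a description.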

How the data were processed

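RNA of sorted mammary cells was sequenced in 4 libraries, 2 from Lgr6+ and 2 from Lgr6- cells, grouped and numbered by their titles. The deposited table gives expected counts, unscaled, with 3.36% to 4.86% of the values in a library fractional. Per the submitters' processing notes, the authors used RSEM 1.2.22, STAR 2.4.2a and the build mm10. The gene annotation and the strand setting were not given in the sources used here. Values were rounded to whole counts, and library totals ran from 6819127 to 7167465 counts, Rn45s included.

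Counts were fitted with edgeR 4.0.16 (R 4.3.3), with filterByExpr (minimum count 10, minimum total 15), TMM factors of 1.21, 1.13, 0.929 and 0.787, a quasi-likelihood fit and test (glmQLFTest) on group alone, and Benjamini-Hochberg adjustment over 11661 genes. Each log2 fold change is of Lgr6+ over Lgr6- cells, with SE as the absolute value over the square root of F. For genes at 0 in 1 population fitted values depend on the prior count, so bounds against 3 counts per library, or for 1 to 3 counts ratios with exact 95% intervals, are given. DESeq2 1.42.0, limma-voom (limma 3.58.1), other scalings and filters, a replicate block and each library left out were alternatives. Exon lengths, positions and overlaps came from GENCODE M21 (GRCm38, also called mm10) and promoters from RefSeq (GRCm38.p6). Steps were tested on simulated data.

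The 10 genes and the 12 context lists (216 genes, of which 201 were in the table) were chosen with earlier results of these data known. Named beside the 10 genes and Lgr6 were up to 4 tested genes per list with the smallest p-values and the 5 genes nearest in pattern to the CD3 chains. Other list genes were named after their values were seen, also where the text does not say so, and Pou2f1 for its overlap with Cd247. Figures used matplotlib 3.10.9. Python 3.11.15 with scipy 1.17.1 gave the intervals.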

Additional observations from a re-analysis of the deposited data

How the results depend on the processing

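With 2 libraries per population, calls depended on the test and on single libraries. Genes called higher in Lgr6+ cells numbered 524 as reported, 967 with no filter and 1568 in DESeq2, and genes called lower 533, 854 and 1025, with 327 lower under library-size scaling. Of the 10 genes, 1 of 7 tested was called lower as reported (4.57% of all tested genes) and 3 of 10 with no filter (5.37%). DESeq2 called 6 of 9 lower (8.4%), limma-voom 4 of 7 (6.24%) and the fit with a replicate block 2 of 7 (5.68%). Leaving out each library in turn gave 678 to 956 genes higher, 540 to 1030 lower and 0 to 3 of the 10 genes lower. None of the 10 was called higher in edgeR as reported or under any of the 12 alternatives, DESeq2 and limma-voom among them, and none had a positive log2 fold change in a fit. Cd3g, Cd4, Cd8a, Cd8b1, Cd2 and Lat, with 0 or 1 Lgr6+ counts, could hardly take another sign, so its constancy is a description. The median of all genes moved from 0.10 to 0.56 under library-size scaling. Lck changed sign without replicate 1 of Lgr6+ (0.03) and of Lgr6- cells (1.84), and ran from -7.08 to 1.84 as single libraries were left out. Same-numbered libraries share only a number (correlation of deviations -0.02 across genes), and the block raised the calls to 678 higher and 662 lower. Counts of 0 to 3 in a library set the precision of Cd8b1, Lat and Cd3d.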

Other observations

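Genes of the lists that the comparison above left aside split by direction. Bcl11b, a transcription factor that commits T cell precursors and is also used in other tissues, had 50 and 60 counts in the Lgr6+ and 2 and 0 in the Lgr6- libraries, against the direction of the CD3 genes, and did not pass in edgeR (log2 fold change of 5.28, adjusted p = 0.209). Il7r, the interleukin-7 receptor gene, had 268 and 453 against 110 and 94 counts (1.41, adjusted p = 0.459). Tcf7, a T cell factor that acts in the Wnt pathway, had 25 and 13 against 187 and 274 counts (-4.04, adjusted p = 0.0978) and passed in DESeq2 alone (0.00123, in a range up to 0.402). The mast cell protease gene Cma1 had no counts in Lgr6+ and 56 and 8 counts in Lgr6- libraries. These genes were chosen after their values were seen.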
